A study of Mus musculus with 12 samples.

Results

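The genes described here are 10 markers of Kupffer cells and other macrophages, Clec4f, Vsig4, Timd4, Folr2, Cd163, Marco, Cd5l, Adgre1, Csf1r and Cd68, of 22557 genes measured in mouse liver. They were chosen by name, and all 10 were found in the table and passed the filter on low values. RNA was sequenced from livers of age-matched female mice in 4 groups of 3 livers, each liver from a different mouse. The groups were Mtdh KO mice with a Py8119 allograft mammary tumor (KO_tumor), WT mice with that tumor (WT_tumor), Mtdh KO mice without a tumor (KO_no_tumor) and WT mice without a tumor (WT_no_tumor). Mtdh encodes metadherin, and Py8119 cells are a line derived from a mammary tumour of a mouse. The labels give neither the strain and age nor the cells in which Mtdh is deleted, and they describe the material as all cells of the liver. The study concerns host Mtdh, liver metabolism and CD8 T cells in mice that carry tumours.

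Kupffer cells are the resident macrophages of the liver. They sit in the sinusoids, where they take up bacteria, worn blood cells and debris from the blood, and they depend on signalling through the Csf1 receptor. In mice they can be replaced by cells derived from blood monocytes, which take on some Kupffer cell genes early and others, such as Timd4, late. The 10 genes fall into receptors that bind particles or cells (Clec4f, Vsig4, Timd4, Folr2, Cd163, Marco), a protein secreted by macrophages (Cd5l), and markers shared by macrophages in many tissues (Adgre1, Csf1r, Cd68). In whole liver, fewer cells of a type and less RNA per cell cannot be told apart.

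Promoters (250 bases before to 50 after the gene's start) were matched in RefSeq for 8 of the 10 genes, all but Adgre1 and Csf1r, and are credited to build GRCm38.p6. Those of 4 genes are shown because Clec4f, Vsig4 and Cd68 had the smallest p-values among the markers for the tumour comparison and Cd5l had the highest level per length. Capitals mark GAGGAA, the core of sites for PU.1-type ETS factors, and TGCTGA, a part of the site for MAF factors, on either strand (TTCCTC and TCAGCA are their reverse complements), and no marked sites overlap.
Clec4f (chr6:83656067-83656366, minus strand): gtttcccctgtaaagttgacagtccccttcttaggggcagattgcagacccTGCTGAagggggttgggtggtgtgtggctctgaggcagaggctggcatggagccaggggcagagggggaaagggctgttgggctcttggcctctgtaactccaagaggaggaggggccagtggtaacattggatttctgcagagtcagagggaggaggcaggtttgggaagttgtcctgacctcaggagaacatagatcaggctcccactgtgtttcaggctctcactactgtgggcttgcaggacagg
Vsig4 (chrX:96293389-96293688, minus strand): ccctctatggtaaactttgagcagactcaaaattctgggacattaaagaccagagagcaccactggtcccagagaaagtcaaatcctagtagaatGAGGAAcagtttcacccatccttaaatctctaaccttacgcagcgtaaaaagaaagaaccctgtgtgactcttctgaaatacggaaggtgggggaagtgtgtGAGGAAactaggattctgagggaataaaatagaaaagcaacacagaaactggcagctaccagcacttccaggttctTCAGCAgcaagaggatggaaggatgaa
Cd5l (chr3:87357631-87357930, plus strand): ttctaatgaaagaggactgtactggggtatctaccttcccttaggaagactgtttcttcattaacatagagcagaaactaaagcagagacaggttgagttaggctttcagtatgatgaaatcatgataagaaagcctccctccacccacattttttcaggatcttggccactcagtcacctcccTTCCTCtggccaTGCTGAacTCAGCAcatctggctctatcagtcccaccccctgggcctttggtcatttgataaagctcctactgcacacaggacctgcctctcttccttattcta
Cd68 (chr11:69666121-69666420, minus strand): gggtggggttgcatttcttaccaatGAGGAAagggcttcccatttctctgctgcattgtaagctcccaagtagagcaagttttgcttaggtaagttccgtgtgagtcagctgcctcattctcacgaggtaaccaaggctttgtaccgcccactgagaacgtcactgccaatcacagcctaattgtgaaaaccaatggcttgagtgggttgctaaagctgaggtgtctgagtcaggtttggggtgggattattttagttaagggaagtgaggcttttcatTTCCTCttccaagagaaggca
GAGGAA or its complement was in the promoters of 4 of the 8 genes (Cd5l, Cd68, Marco and Vsig4) and in 28.3% of 32851 promoters of the same length. TGCTGA or its complement was in promoters of 5 of the 8 (Cd5l, Clec4f, Folr2, Timd4 and Vsig4) and in 19.5% of all promoters. The shares of all count promoters and not genes, and the 8 genes have 9 promoters, 2 of them of Folr2. Counted by promoter, GAGGAA was in 4 of 9 and TGCTGA in 6 of 9. In Cd5l the TGCTGA and TCAGCA copies lie 54 and 46 bases before the start, and the TTCCTC copy 66 bases before it. CACGTG, the E-box of MITF and TFE type factors, was in promoters of 0 of the 8 and in 7.15% of all, and AGGTCA, a part of many nuclear receptor sites, in those of 2 (Clec4f and Timd4) and in 16.3% of all. These matches describe letters in a window and not binding.

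The deposited values are normalized signals, in which reads were scaled by each library's size factor. KO_tumor replicate 1 was the shallowest library, at an estimated 12700000 reads, against 25700000 to 43000000 elsewhere. It also had the fewest genes above 0 (14899, against 17772 to 20365). In KO_no_tumor replicate 3, small nucleolar RNAs held 4.84% of the signal, against at most 1.23% elsewhere. Both libraries stand apart, and where it matters the results are also given without them. Mtdh was 323 to 1063 in the KO livers and 3954 to 5702 in the WT livers. The markers' values rest on estimated reads from 7 for Folr2 in KO_tumor replicate 1 to 4095 for Cd5l. Summed over the 10 genes they reached 8048 to 11907 with a tumour and 4748 to 10732 without, ranges that overlapped.

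Every one of the 10 genes was above 0 in all 12 libraries. Per kilobase of the longest coding transcript, the median normalized signal over 12 libraries was highest for Cd5l (1181 per kb, range 654 to 1724) and Clec4f (749 per kb, range 391 to 1200). Adgre1 (467 per kb), Vsig4 (420 per kb), Csf1r (292 per kb), Cd163 (192 per kb), Timd4 (127 per kb) and Cd68 (92.8 per kb) followed in this order. Folr2 (58 per kb, range 14.3 to 160) and Marco (39.2 per kb, range 7.1 to 159) had the lowest medians. The ranges of every pair of neighbours in this order overlapped, but all genes were read in the same libraries. Within libraries, Cd5l lay above Clec4f and Clec4f above Adgre1 in 12 of 12, and Vsig4 above Csf1r in 11 of 12. Csf1r lay above Cd163 and Cd163 above Timd4 in 10 of 12. The order was less steady for Adgre1 over Vsig4 and Timd4 over Cd68 (7 of 12 each), Folr2 over Marco (8 of 12) and Cd68 over Folr2 (9 of 12).

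Clec4f (ENSMUSG00000014542, chromosome 6, 83621524 to 83633170, mm39) encodes a C-type lectin that in mice is largely restricted to Kupffer cells. Its normalized signal was 2964, 1981 and 2730 in KO_tumor livers, 2234, 2795 and 1461 in WT_tumor livers, 1264, 1722 and 1701 in KO_no_tumor livers, and 1180, 965 and 1987 in WT_no_tumor livers. Every KO_tumor library lay above every KO_no_tumor library, while among WT livers replicate 3 of the tumour group lay below replicate 3 of the group without.

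Vsig4 (ENSMUSG00000044206, chromosome X, 95290809 to 95337045) encodes a complement receptor with which Kupffer cells capture C3-coated bacteria. It was 683, 535 and 737 in KO_tumor livers, 994, 693 and 675 in WT_tumor livers, 350, 646 and 502 in KO_no_tumor livers, and 261, 417 and 558 in WT_no_tumor livers. Here the WT groups did not overlap, with tumour above none, and the KO groups did.

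Timd4 (ENSMUSG00000055546, chromosome 11, 46701627 to 46735160) encodes a receptor for phosphatidylserine on dying cells. It was 256, 241 and 357 in KO_tumor livers, 313, 283 and 294 in WT_tumor livers, 175, 240 and 420 in KO_no_tumor livers, and 269, 108 and 445 in WT_no_tumor livers. The coefficient of variation was 5.16% in WT_tumor livers and 61.5% in WT_no_tumor livers, and all 4 groups overlapped.

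Folr2 (ENSMUSG00000032725, chromosome 7, 101489195 to 101506402) encodes folate receptor beta. It was 17.3, 77.4 and 117 in KO_tumor livers, 43.9, 38.9 and 103 in WT_tumor livers, 62.4, 60.2 and 192 in KO_no_tumor livers, and 90.3, 39.9 and 80.5 in WT_no_tumor livers. The lowest value, in KO_tumor replicate 1, rests on about 7 reads. For counting error alone, the exact Poisson 95% interval is 2.81 to 14.4 reads, or 6.94 to 35.6 in normalized signal. Folr2 overlaps the non-coding gene Gm10602 on the other strand (mean signal 48.7), and without stated use of strand their reads cannot be told apart.

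Cd163 (ENSMUSG00000008845, chromosome 6, 124281615 to 124307487) encodes the scavenger receptor for haemoglobin bound to haptoglobin. It was 432, 664 and 922 in KO_tumor livers, 1172, 591 and 1246 in WT_tumor livers, 526, 915 and 787 in KO_no_tumor livers, and 984, 307 and 1035 in WT_no_tumor livers. All groups overlapped, and replicate 2 was the lowest in both WT groups.

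Marco (ENSMUSG00000026390, chromosome 1, 120402267 to 120432754) encodes a class A scavenger receptor for bacteria and particles. It was 291, 41.6 and 55.4 in KO_tumor livers, 124, 161 and 49.8 in WT_tumor livers, 48.2, 95.5 and 305 in KO_no_tumor livers, and 24.8, 13.7 and 230 in WT_no_tumor livers. Its highest value was 22.3 times its lowest, the widest spread of the 10 genes, and in 3 of the 4 groups a single library lay far above the other two.

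Cd5l (ENSMUSG00000015854, chromosome 3, 87265188 to 87278381) encodes a secreted scavenger protein, also called AIM, that circulates with IgM. It was 2616, 1736 and 2521 in KO_tumor livers, 2950, 2881 and 2289 in WT_tumor livers, 1515, 1913 and 3511 in KO_no_tumor livers, and 1429, 1332 and 2636 in WT_no_tumor livers. Replicate 3 was the highest in both groups without a tumour, and all groups overlapped.

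Adgre1 (ENSMUSG00000004730, chromosome 17, 57665691 to 57790528) encodes F4/80, the surface protein by which mouse macrophages are commonly stained. It was 2118, 1356 and 1523 in KO_tumor livers, 1792, 1999 and 1500 in WT_tumor livers, 954, 1269 and 1635 in KO_no_tumor livers, and 904, 850 and 2129 in WT_no_tumor livers. The WT_no_tumor library with 2129 was the highest of all 12, above every library with a tumour.

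Csf1r (ENSMUSG00000024621, chromosome 18, 61233670 to 61265222) encodes the receptor for the growth factors Csf1 and Il34, which macrophages need to survive. It was 2204, 1266 and 1819 in KO_tumor livers, 1535, 1584 and 991 in WT_tumor livers, 595, 1204 and 1567 in KO_no_tumor livers, and 970, 641 and 1483 in WT_no_tumor livers. The groups overlapped, and the gene's span shares 873 bases with Hmgxb3 on the other strand.

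Cd68 (ENSMUSG00000018774, chromosome 11, 69555039 to 69556980) encodes a glycoprotein of macrophage lysosomes. It was 325, 150 and 276 in KO_tumor livers, 105, 305 and 115 in WT_tumor livers, 43.5, 117 and 113 in KO_no_tumor livers, and 44, 73.6 and 108 in WT_no_tumor livers. Every KO_tumor library lay above every KO_no_tumor library, while in WT livers the groups overlapped narrowly (105 against 108).

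**Figure D1:**
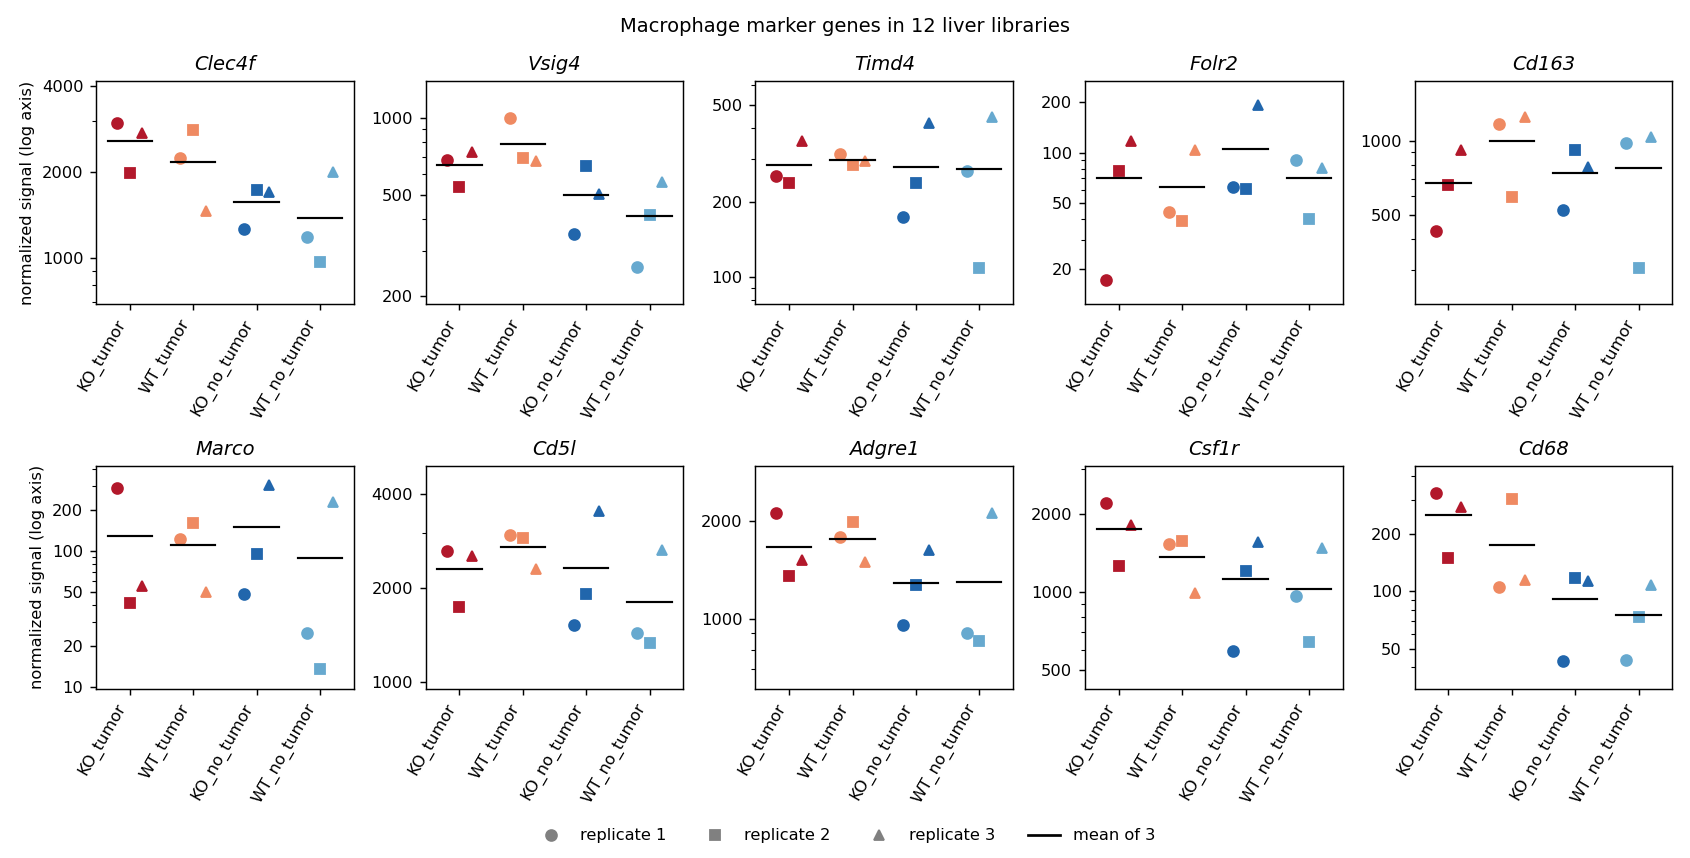
Normalized signal (log axis) of the 10 marker genes in 12 liver libraries by group, with a symbol per replicate number and a bar at the mean of 3. Clec4f and Cd68 in KO livers and Vsig4 in WT livers show tumour libraries that all lie above those without a tumour, and Marco spans 13.7 to 305.

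With a mammary tumour, 9 of the 10 marker genes had estimates above 0 when averaged over genotypes, and none of the 10 passed the test. Cd68, Vsig4 and Clec4f had the largest averaged log2 fold changes: 1.31 ± 0.41, 0.70 ± 0.22 and 0.69 ± 0.21 (SE, 6 livers with against 6 without a tumour). As folds these are 2.48, 1.62 and 1.61, with 95% intervals of 1.36 to 4.54, 1.17 to 2.25 and 1.19 to 2.19. Folr2 was the gene with an estimate below 0 (−0.48 ± 0.54), and without both libraries that stood apart its estimate turned to 0.20.

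By limma over all genes, 0 of 10 were called in this averaged comparison, where 1.06% of 17380 genes were called. The unadjusted p was under 0.05 for 4 of 10, all higher (Clec4f, Cd68, Vsig4 and Csf1r), against 15.1% of all genes in either direction and 7.08% higher. The limma adjusted p was 0.128 for Clec4f, 0.139 for Cd68, 0.149 for Vsig4 and 0.306 for Csf1r. Their ranks by p among all genes were 652, 738, 816 and 2232. The median of the 10 was 0.45, against −0.04 for all genes tested, of which 46.8% were above 0. The 10 genes come from the same livers and vary together, so they are not 10 separate observations. With library weights Vsig4 passed (0.78, limma adjusted p = 0.0404), and over the other alternatives 0 of 10 passed.

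Adgre1 (0.48 ± 0.23, 95% interval −0.01 to 0.96) and Cd5l (0.35 ± 0.22, −0.12 to 0.83) had averaged log2 fold changes above 0 that did not pass. For Timd4 the estimate was 0.22 ± 0.32 (−0.47 to 0.92), for Cd163 0.16 ± 0.32 (−0.52 to 0.84) and for Marco 0.42 ± 0.73 (−1.14 to 1.97). The intervals of Timd4, Cd163, Cd5l and Adgre1 lie between −1 and 1, those of Marco and Folr2 do not.

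In KO livers, the log2 fold change of tumour over no tumour was 1.50 ± 0.57 for Cd68, 0.72 ± 0.37 for Csf1r and 0.70 ± 0.29 for Clec4f. Vsig4 was at 0.41 ± 0.31, Cd5l at 0.06 ± 0.31 and Marco at −0.35 ± 1.03. Without both libraries that stood apart the estimate turned to 0.63 for Folr2 (−0.72 ± 0.77 with them) and to 0.17 for Cd163 (−0.17 ± 0.45 with them). Of the 10 genes 0 were called by limma, as were 0% of all genes, and 2 (Cd68 and Clec4f) had an unadjusted p under 0.05, against 12.7% of all genes. For the same 2 genes every KO_tumor library lay above every KO_no_tumor library, which held for 7.34% of all genes. The lowest limma adjusted p of the 10 was 0.353, for Cd68. The median was 0.24, against −0.08 for all genes, and it was 0.46 without both libraries that stood apart. KO_no_tumor replicate 1 had the lowest value of the KO livers for Clec4f, Vsig4, Timd4, Cd5l, Adgre1, Csf1r and Cd68, and without it the median was 0.0009.

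In WT livers, the log2 fold change of tumour over no tumour was 0.98 ± 0.31 for Vsig4, 0.67 ± 0.29 for Clec4f, 0.65 ± 0.31 for Cd5l and 1.12 ± 0.57 for Cd68. Adgre1 was at 0.57 ± 0.32, Csf1r at 0.46 ± 0.37 and Marco at 1.18 ± 1.03. Cd163 was at 0.49 ± 0.45 and Timd4 at 0.34 ± 0.46, and the estimate was below 0 for Folr2 alone (−0.24 ± 0.77). Of the 10 genes 0 were called by limma, against 0.679% of all genes, and 2 (Vsig4 and Clec4f) had an unadjusted p under 0.05, against 8.67% of all genes. Vsig4, with a limma adjusted p of 0.262, was the gene of the 10 whose tumour libraries all lay above the others, which held for 9.46% of all genes. The median was 0.61, against 0.005 for all genes. WT_no_tumor replicate 3 had the highest value of its group for every marker but Folr2, and without it the median was 0.97, while without WT_no_tumor replicate 2 it was 0.36, with 0 of 10 called in both cases.

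**Figure D2:**
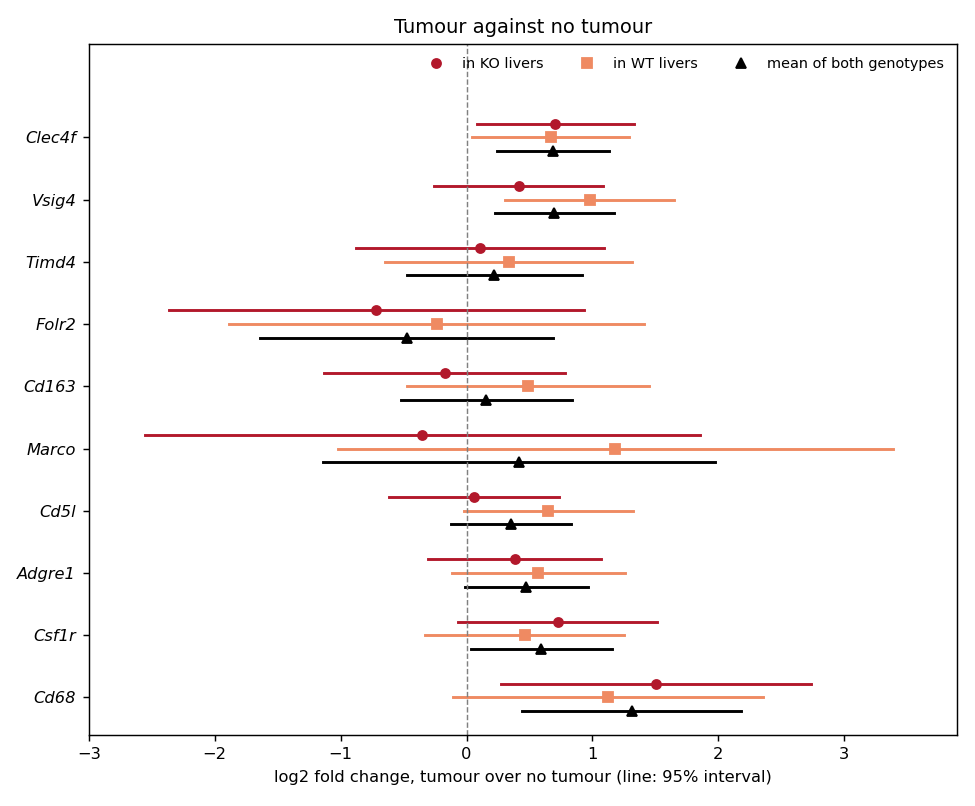
Log2 fold change of tumour over no tumour for each marker gene in KO livers, in WT livers and as the mean of both, with lines for the 95% interval of limma's fit. The averaged intervals of Clec4f, Vsig4, Csf1r and Cd68 lie above 0, though no adjusted p was under 0.05, and Marco and Folr2 have the widest lines.

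The tumour effect was compared between genotypes by the interaction, the effect in KO minus that in WT. Of the 10 genes 0 were called by limma, as were 0% of all genes, and 0 had an unadjusted p under 0.05, against 4.7% of all genes. Limma adjusted p-values ran from 0.859 to 0.989. Estimates were below 0 for 7 of the 10, with a median of −0.35, against −0.09 for all genes. They were −0.56 ± 0.44 for Vsig4, −0.59 ± 0.45 for Cd5l, −0.66 ± 0.63 for Cd163 and −1.53 ± 1.45 for Marco. Those above 0 were Clec4f (0.03 ± 0.41), Csf1r (0.26 ± 0.52) and Cd68 (0.38 ± 0.81). The interval for Clec4f, −0.85 to 0.92, was the one of the 10 that lay between −1 and 1. It was wide beside that gene's averaged tumour effect of 0.69. For none of the 10 genes do these data show that the tumour effect was alike in both genotypes.

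Averaged over tumour states, none of the 10 markers passed the test between genotypes. Adgre1 had a log2 fold change of KO over WT of −0.004 ± 0.23, Vsig4 of 0.02 ± 0.22, Timd4 of 0.03 ± 0.32 and Cd5l of 0.04 ± 0.22. Clec4f was at 0.25 ± 0.21, Csf1r at 0.23 ± 0.26 and Cd163 at −0.24 ± 0.32. The 95% intervals of these 7 genes lay between −1 and 1, a range of 0.5 to 2 times the WT level. For Adgre1 the interval as a fold was 0.712 to 1.40, and for Vsig4 0.73 to 1.41. The intervals of Cd68 (0.43, −0.44 to 1.30), Folr2 (0.19, −0.97 to 1.36) and Marco (0.58, −0.97 to 2.14) were wider.

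By limma 0 of the 10 were called for KO against WT averaged over tumour states, against 0.0115% of all genes. The unadjusted p was under 0.05 for 0 of 10, against 10.3% of all genes.

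With a tumour, 0 of 10 were called for KO against WT, against 0.023% of all genes, and 0 had an unadjusted p under 0.05, against 14.4%. The estimates ran from −0.57 ± 0.45 for Cd163 to 0.62 ± 0.57 for Cd68, with a median of −0.09, against −0.12 for all genes.

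Without a tumour, 0 of 10 were called, against 0.00575% of all genes, and 0 had an unadjusted p under 0.05, against 1.93%. All 10 estimates were above 0, against 49% of all genes, from 0.09 ± 0.32 for Adgre1 to 1.35 ± 1.03 for Marco. Their median was 0.24, against −0.01 for all genes. The median was 0.01 without KO_no_tumor replicate 3, the library rich in small nucleolar RNAs, in which Cd5l, Marco and Folr2 had their highest value of all 12 libraries. It was 0.55 without WT_no_tumor replicate 3, the highest with a single library left out. These comparisons share libraries with each other and with the tumour comparisons.

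**Figure D3:**
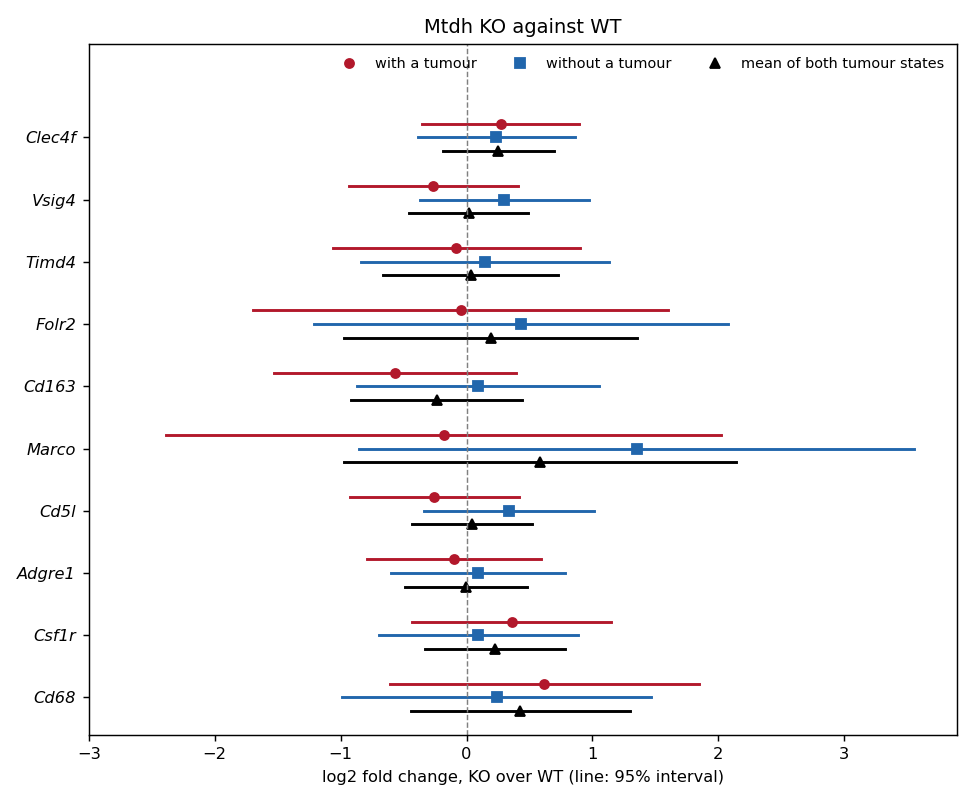
Log2 fold change of KO over WT for each marker gene with a tumour, without a tumour and as the mean of both, with lines for the 95% interval of limma's fit. Every interval includes 0, and those averaged over tumour states lie between −1 and 1 for 7 of the 10 genes.

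Across the 12 libraries most of the markers went up and down together. Of 45 pairs of genes, 38 had a Pearson r above 0 on the log2(value + 1) scale, with a median of 0.66. The highest were Clec4f with Csf1r (0.90), Cd5l with Adgre1 (0.89) and Clec4f with Cd68 (0.88). Deviations from the group means, which leave out the group differences, gave a median of 0.63 and 39 pairs above 0, with Marco and Adgre1 at 0.97. Libraries share depth and scaling across genes, so these values are a description over 12 points. Folr2 was the exception: its r was −0.26 with Clec4f, −0.23 with Vsig4 and −0.30 with Cd68. Its r was 0.56 with Cd163 and 0.47 with Timd4. Cd163 in turn had an r of 0.74 with Timd4 but of 0.16 with Clec4f and −0.07 with Cd68.

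Of the 10 genes, 6 had their lowest value in WT_no_tumor replicate 2, 2 in KO_no_tumor replicate 1 and 1 each in WT_no_tumor replicate 1 and KO_tumor replicate 1. Highest values fell in KO_tumor replicate 1 for 3 genes (Clec4f, Csf1r and Cd68) and in KO_no_tumor replicate 3 for 3. They fell in WT_no_tumor replicate 3 for 2 genes (Adgre1 and Timd4) and in WT_tumor replicates 1 and 3 for 1 each (Vsig4 and Cd163).

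**Figure D4:**
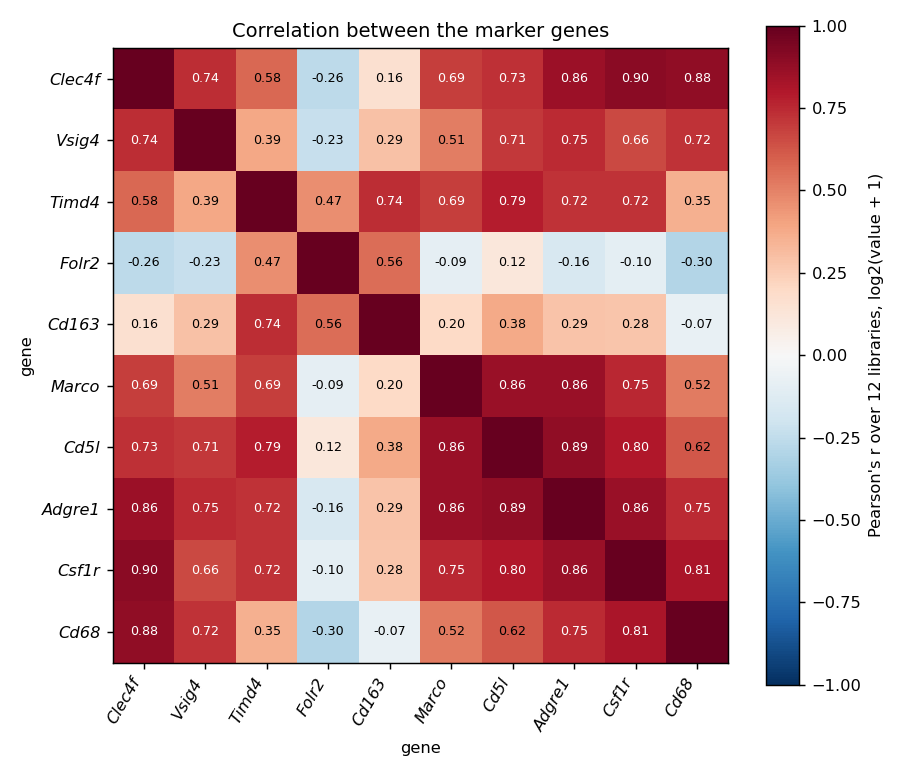
Pearson's r between each pair of marker genes over 12 libraries on log2(value + 1) values, from blue (−1) to red (1). Clec4f, Adgre1, Csf1r, Cd5l and Marco form a block with r of 0.69 or more, while Folr2 is at or below 0.12 with 7 of the other genes.

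Other genes of macrophages were described mainly by the tumour comparison averaged over genotypes. Among 13 other Kupffer cell genes, 1 was higher by limma in livers with a tumour averaged over genotypes and 0 were lower. Of all genes, 1.06% were called in this comparison. The list's median log2 fold change was 0.34. The unadjusted p was under 0.05 for 2 that were higher and 2 that were lower, against 15.1% of all genes in either direction and 7.08% higher. Of the 13 estimates 4 were below 0. The summed signal of the list had a median of 21471 with a tumour and 23802 without. Slc40a1, with a mean of 13213 the highest gene of the list, weighs most in this sum, which therefore does not describe the 13 genes alike. The called gene was C6, a component of the complement attack complex, which rose by 1.06 ± 0.23 (limma adjusted p = 0.0406). C6 was 1344, 934 and 1679 in KO_tumor livers, 1570, 1953 and 919 in WT_tumor livers, 557, 788 and 722 in KO_no_tumor livers, and 431, 615 and 857 in WT_no_tumor livers. Every library with a tumour lay above every library without, which held for 0.748% of all genes. The call ended without any single library of 8 of the 12, where the limma adjusted p was 0.058 to 0.126, and without both libraries that stood apart (0.0921). With the replicate number as a block it was 0.0653.

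Among 22 general macrophage genes, 0 were called by limma in either direction in the averaged tumour comparison, and 3 of 22 had an unadjusted p under 0.05, all higher, against 15.1% of all genes in either direction and 7.08% higher. Estimates were above 0 for 20 of them, with a median of 0.37. Ctss, a lysosomal protease, was at 1.04 ± 0.33 (limma adjusted p = 0.145), and Laptm5, a lysosomal membrane protein of blood cells, at 0.67 ± 0.25 (0.219). Of 4 tested genes of the Csf1 and Csf2 pathways 0 were called. Csf2rb, a receptor chain, was at 0.71 ± 0.23 (limma adjusted p = 0.149) and Il34, a ligand of Csf1r that was listed at 0 in 2 KO_tumor libraries, at −1.30 ± 0.89 (0.511).

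Of 8 tested monocyte genes, 0 were called by limma in the averaged tumour comparison, against 1.06% of all genes. In WT livers 1 was called, higher with a tumour, against 0.679% of all genes. The gene was Ccr2, the receptor that brings monocytes out of the bone marrow (1.78 ± 0.37, limma adjusted p = 0.0448). It was 475, 622 and 526 in WT_tumor livers, against 103, 153 and 242 in WT_no_tumor livers. In KO livers it was 182, 157 and 192 with a tumour, against 171, 138 and 278 without (−0.09 ± 0.37). The interaction was −1.86 ± 0.53 and did not pass (unadjusted p = 0.0032, limma adjusted p = 0.859). With a tumour, Ccr2 in KO over WT livers was at −1.60 ± 0.37 and did not pass (limma adjusted p = 0.136). Summed over the 9 listed monocyte genes, the signal with a tumour was 1395 to 1848 in WT livers and 517 to 913 in KO livers. Without a tumour it was 399 to 743 and 499 to 982, and the sum was not tested. The call for Ccr2 ended without any single library of 9 of the 12, 5 of them of the WT groups, with limma adjusted p of 0.0529 to 0.217, and with the replicate number as a block (0.0553).

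Of 8 lipid-associated macrophage genes 0 were called in the averaged tumour comparison, with a median of 0.29. The median was 0.94 in WT livers and −0.45 in KO livers, with 0 called in either, and 5 of the 8 were above 0 in every library. In the averaged comparison Mmp12, a macrophage elastase, was at −0.75 ± 0.27 (limma adjusted p = 0.193) and Cd9, a tetraspanin, at 0.61 ± 0.22 (0.211). Of 5 tested inflammatory macrophage genes 0 were called, with Il1b at 1.68 ± 0.67 (limma adjusted p = 0.248) and Tnf at −1.55 ± 1.18 (0.556). Of 6 tested genes of alternative activation 0 were called, with Mrc1, a mannose receptor that sinusoidal endothelium also expresses, at 0.56 ± 0.15 (limma adjusted p = 0.0885) and Il10 at −2.46 ± 0.93 (0.222). Genes that passed the filter on low values only in the groups where they are high had to differ there, so no count over these lists supports a direction.

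Markers of other liver cells were read in the same libraries. Summed over 11 sinusoidal endothelial markers, all above 0 in every library, the signal was 13666 to 20983 with a tumour and 8985 to 12137 without. Summed over 8 stellate cell markers, also all above 0, it was 13753 to 21939 with a tumour and 10324 to 12977 without, so neither list's ranges overlapped. Dcn, with a mean of 4918 the highest gene of the stellate list, weighs most in its sum. Among single genes, every library with a tumour lay above every library without for 0.748% of all. In the averaged tumour comparison 1.06% of all genes were called by limma. Of the 11 endothelial markers 1 was called, the lectin Clec4g (0.90 ± 0.15, limma adjusted p = 0.0136). So were 2 of the 8 stellate cell markers, the matrix proteoglycan Dcn (1.17 ± 0.14, 0.00167) and the growth factor receptor Pdgfrb (1.39 ± 0.23, 0.0109). In WT livers Col3a1, a fibrillar collagen, also passed (1.50 ± 0.25, limma adjusted p = 0.015), where 0.679% of all genes were called. In KO livers Col3a1 was at −0.23 ± 0.25 (0.671), with an interaction of −1.74 ± 0.35 that did not pass (unadjusted p = 0.000198, limma adjusted p = 0.727). Without KO_tumor replicate 3 or KO_no_tumor replicate 1 the limma adjusted p of Clec4g was 0.0533 and 0.0534, and the Col3a1 call ended without any of 4 libraries of the WT groups (up to 0.0969). The part of these cells in the markers' values was not tested.

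Summed hepatocyte markers overlapped, with 2594550 to 4245800 with a tumour and 2303410 to 2838330 without. Of 7 tested hepatocyte markers 0 were called, with Apoa1 at 1.22 ± 0.33 (limma adjusted p = 0.097) and Cps1 at −0.69 ± 0.26 (0.224). Of 13 neutrophil markers 2 were above 0 in every library and 7 were tested. Mmp9 was at 3.68 ± 0.83 (limma adjusted p = 0.0507) and Retnlg at 2.93 ± 1.06 (0.199). The summed neutrophil signal was 125 to 903 with a tumour and 72.9 to 264 without. With a tumour it was 485 to 903 in WT livers and 125 to 399 in KO livers, and the sum was not tested. Of the lymphocyte, dendritic cell, mammary epithelial and peritoneal macrophage markers tested, 0 were called in the averaged tumour comparison. Gata6, the defining factor of large peritoneal macrophages, was at 0.24 ± 0.19 (limma adjusted p = 0.576) and Prg4 at 0.70 ± 0.33 (0.338), while Cd3e was at 1.63 ± 0.76 (0.333), Ncr1 at 1.40 ± 0.95 (0.505), Xcr1 at −1.62 ± 0.90 (0.422), Cd209a at 1.56 ± 0.95 (0.457), Elf5 at −0.60 ± 0.64 (0.68) and Krt7 at −0.74 ± 0.86 (0.714).

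**Figure D5:**
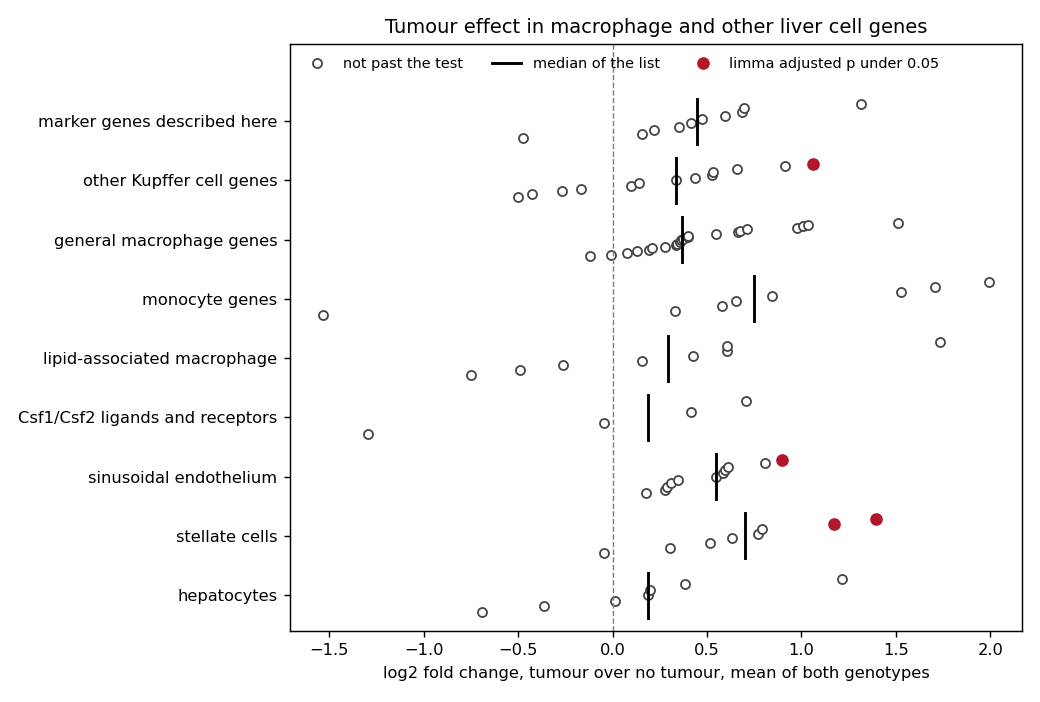
Log2 fold change of tumour over no tumour, mean of both genotypes, for each tested gene of 9 lists, with filled points past the limma threshold and a bar at each list's median. The 10 markers have a median of 0.45 and no filled point, while C6, Clec4g, Dcn and Pdgfrb are filled.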

How the data were processed

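RNA sequencing of whole liver from 12 mice was deposited as 1 table of 22557 genes with 1 column per library, and the labels' descriptions name each column's liver. Values are a normalized signal on a linear scale, which the authors made with DESeq2 according to the name given to the deposited table. STAR 2.7.8a, Partek, DESeq2 and genome build mm39 are named in the submitters' processing notes. How reads were counted, with which annotation, filters and strand setting, is not given in the sources used here.

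The test was limma 3.58.1 (R 4.3.3; lmFit and trended eBayes) on log2(value + 1), for the 17380 genes that reached 10 in 3 or more libraries. A single fit of group means, without a block, took in all 12 libraries. There were 7 comparisons, and two-sided p-values were adjusted by the Benjamini-Hochberg method over all genes within each, with a threshold of 0.05. Intervals at 95% are those of single genes and are not adjusted for their number. Depth was estimated from the value of 1 read, the lowest value that at least 20 genes repeated. Of values worth up to 20 reads, 77.9% to 85% per library were whole multiples of it within 0.01 reads, so no count model was used.

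The marker genes and the other gene lists were chosen with earlier results of these data known. Of 145 listed symbols, 144 were in the table; Csf2 was not analysed here. From the other lists, genes past the test in any comparison were named, and otherwise up to the first 2 by p in the tumour comparison averaged over genotypes. Genes most like the markers were the 5 with a mean of at least 50 and the highest correlation with the markers' mean standardised level. The fit was tested on simulated data. Alternatives were a pseudocount of 10, no filter, rescaling to the same total, quantile normalization, protein-coding genes alone, weights per library, a block for the replicate number, eBayes in its robust form, a fit of the 2 groups compared, and libraries left out. Promoter sequences came from RefSeq (GRCm38.p6) and transcript lengths from GENCODE M21. Figures were drawn with matplotlib 3.10.9 under Python 3.11.15.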

Additional observations from a re-analysis of the deposited data

How the results depend on the processing

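Of the 10 markers 0 were called in each of the 7 comparisons under every alternative run, with 1 exception: with library weights 1 was called in the tumour comparison averaged over genotypes (Vsig4). Library weights also moved the count of all genes called, to 510, against 118, for tumour in WT livers, to 856, against 185, averaged over genotypes, to 1664, against 4, for KO with a tumour, to 139, against 2, for KO averaged, and to 14, against 0, for tumour in KO livers. The other settings gave 0 to 17 for KO with a tumour, and without both libraries that stood apart 211 were called for tumour in WT livers. Leaving out single libraries gave 11 to 208, 47 to 359 and 2 to 211. The lowest of these, 11, 47 and 2, came without WT_tumor replicate 3, KO_no_tumor replicate 1 and WT_tumor replicate 3. Left-out libraries gave 0 to 1 for tumour in KO livers, for KO without a tumour and for the interaction, and 2 to 13 for KO averaged. Of 1510 estimates of single markers under the alternatives, 12 moved by over 1 SD between replicates and 114 changed sign with neither value past the threshold.

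The markers' median log2 fold change ran, with each library left out in turn, from 0.36 to 0.97 for tumour in WT livers, 0.00 to 0.45 in KO livers, 0.30 to 0.72 averaged, 0.01 to 0.55 for KO without a tumour, −0.15 to 0.03 with a tumour, −0.04 to 0.26 averaged, and −0.65 to 0.03 for the interaction. Quantile normalization moved the median of all genes most for KO with a tumour and the interaction, to 0.005 and 0.02, against −0.12 and −0.09. Averaged over tumour states 6 of 10 markers were above 0 for KO over WT under that scaling and under rescaling to the same total. With the replicate number as a block, 0 markers were called and genes called numbered 89 and 137 for tumour in WT livers and averaged, and 13 for KO with a tumour. Same-numbered libraries deviated with correlations of −0.0936 to 0.0998, and 3 of 12 correlated best with their own number. The replicate numbers are those of the sample titles, and the labels' descriptions number KO_no_tumor replicates 2 and 3 as 3 and 4. Neither this check nor the block can therefore tell whether livers were paired, and the numbers were not taken as pairs. The call for Mtdh without a tumour was lost on leaving out KO_no_tumor replicate 2 (−3.01, limma adjusted p = 0.0536) and WT_no_tumor replicate 2 (−3.09, 0.0683), and that with a tumour when the groups compared were fitted alone (−3.28, 0.125). That for Dcn in WT livers was lost without any of 4 libraries (0.0726 to 0.0905). Depth limits Folr2, Marco and Cd68 most, with as few as 7, 13 and 39 estimated reads.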

Other observations

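The genes whose pattern over the 12 libraries was most like the markers' mean standardised level were Flna (r = 0.93), Slc15a3 (0.92), Itgal (0.92), Itgb2 (0.91) and Piezo1 (0.90), the highest of 12258 candidates with a mean of at least 50. Flna encodes an actin cross-linking protein, Itgal and Itgb2 the chains of the leukocyte integrin LFA-1, and Piezo1 a mechanically gated ion channel. These values are a description over libraries that share depth and scaling.

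Most of the 13 other Kupffer cell genes had an r above 0 with the markers' mean, from 0.19 for Nr1h3 to 0.85 for Gfra2. Only Slc40a1, Hpgd and Id3 went the other way. Slc40a1, the iron exporter ferroportin, had an r of −0.65 with the markers' mean, Hpgd, a prostaglandin-degrading enzyme, −0.77, and Id3, a transcription factor of Kupffer cells, −0.50. In WT_no_tumor replicate 2, where 6 of the 10 markers were lowest, Slc40a1 was 24889, against 8053 to 15153 in the other 11 libraries. Id3 was also highest in that library (1304, against 419 to 1087). In the averaged tumour comparison Hpgd was at −0.50 ± 0.17 (limma adjusted p = 0.186). Other cells of the liver also express these genes, and their part was not tested.

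In KO_tumor replicate 1, the shallowest library, Fcgr3 was listed at 0 and Folr2 was lowest, while Clec4f, Csf1r, Cd68, C1qa and Mrc1 were higher than in any other library. C1qa was 1063 there, against 191 to 471 elsewhere, and Mrc1 was 4142, against 1688 to 3717.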
